A study of Mus musculus with 15 samples.

Results

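Angiotensin II (AngII) was compared with saline in primary mouse cardiomyocytes by RNA-Seq, using the 4 libraries of AngII-stimulated cells (S5, S6, S7 and S8) and the 3 control libraries of saline-treated cells (S1, S2 and S3) among the 15 libraries of the series. The cells came from hearts of wild-type C57/BL6 pups aged 1 to 3 days, grew for 5 days, were starved for 24 h in 0.5% FBS, received their treatment on day 6 and again on the next day, and were harvested on day 8. AngII was given at 1 µM, and nothing else distinguishes the 7 libraries by their labels. The other 8 libraries, 4 of cells given low-dose cilengitide (ldCil, 20 nM) and 4 given AngII and ldCil together, entered the same fit and serve here to show how the AngII difference looked in cells that also had ldCil. Of the 14337 genes listed, the 12848 whose log2 RPKM averaged 0 or more across the series were included. RPKM is the read count scaled to gene length and library size, and the deposited values are log2 RPKM after conditional quantile normalisation, so that a difference of 1 is a change of 2-fold.

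AngII is the effector peptide of the renin-angiotensin system. It binds the AT1 receptor (Agtr1a in the mouse), which couples to Gq, releases calcium through phospholipase C and activates protein kinase C, calcineurin and the RAS-ERK cascade, and it is a standard stimulus for enlargement of cultured cardiomyocytes. Hypertrophic growth in this tissue is classically read from the fetal gene programme, with natriuretic peptides, skeletal actin and beta myosin heavy chain, and it draws on protein synthesis and mitochondrial respiration. Cells short of amino acids or with misfolded protein phosphorylate eIF2, which favours translation of the transcription factor ATF4, and ATF4 with its partners then raises genes for amino acid synthesis, amino acid import and tRNA charging.

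Cardiomyocyte markers, of which 12 of 12 were tested, had the highest summed level of the marker lists. It was 13.81 to 13.96 (log2) in control libraries and 13.92 to 13.996 with AngII. RNA of other heart cells was present as well: the summed level was 11.40 to 11.55 and 11.08 to 11.79 for fibroblast markers, 7.63 to 8.31 and 7.45 to 9.05 for macrophage markers and 6.70 to 6.92 and 6.71 to 7.10 for endothelial markers, in control and AngII libraries respectively. None of the 8 erythroid markers was in the table. In such bulk samples, fewer cells of a type and less RNA per cell cannot be told apart. The values of the 4684 highest ranks were the same in all 15 libraries (to within 1e-06), down to a log2 RPKM of 4.50, so that above this level a gene's value is set by its rank in the library. The 7 libraries did not divide cleanly by treatment. On their first principal component (57.7% of the variance) S5 had the highest score, 47.8, beside the control libraries S1 (28.9), S3 (34.6) and S2 (4.14), while S8, S7 and S6 had scores of −18.8, −47.5 and −49.3. The values of S5 also ran with transcript length, and more steeply than those of the other 6 libraries. Its genes of 800 to 1500 bases stood at a median of 0.25 above the mean of the 7 libraries and those over 6000 bases at −0.13, against −0.07 to 0.05 for any other library and length class. In S6 and S7 the slope was the opposite one, from −0.07 and −0.02 at 800 to 1500 bases to 0.05 in both over 6000 bases. Many of the gene lists are therefore also given without S5. Neither the labels nor the methods say that replicates are separate cultures, so p-values measure library-to-library spread that may be technical, and read counts and depth are unknown.

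Genes of the amino acid response had the lowest p-values among genes below control levels after AngII, and subunits of the respiratory chain stood above control levels in many cases without overlap between groups. No gene passed an adjusted p of 0.05 (limma with Benjamini-Hochberg adjustment, smallest adjusted p = 0.782). At an unadjusted p under 0.01, the threshold at which a gene is called in what follows, 118 of 12848 genes were called (0.918%), 70 higher with AngII (0.545%) and 48 lower (0.374%). At an unadjusted p under 0.05 there were 776 (6.04%), 438 higher (3.41%) and 338 lower (2.63%). Without reference to a model, the AngII libraries all lay above the control libraries in 650 genes (5.06%) and all below in 473 (3.68%), together 1123 (8.74%). The split of the called genes depended on scaling, with 59.3% of them higher as deposited, 48.4% after full quantile normalisation and 48.2% after removal of each library's length trend. Removal of 1 library moved the number called from 118 to 40 (without S3), 50 (S1), 54 (S6), 55 (S7), 197 (S8) or 281 (S5). Without S5, 2.19% of all genes were called (1.03% higher and 1.16% lower), and 12.8% had an unadjusted p under 0.05 (6.16% higher and 6.65% lower), the background for the counts of list members without S5. Of the 118, 28 were still called without S3, 37 without S1 and 75 without S5, and 13 were called whichever of the 7 libraries was left out, among them Ddit3, Asns, Trib3 and Mthfd2 on the lower side and Rln1, Il17d, Dclk2, Lockd, Cables1 and Galnt16 on the higher side. The direction of all 118 was the same in each of these fits.

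The higher and the lower genes differed in kind. The 70 higher genes had a median level of 1.25 (log2 RPKM over the 15 libraries) against 3.85 for all genes tested, and 30 of them had a mean under 1. The 48 lower genes had a median level of 4.31, and 26 had a mean of at least 4. Of genes with a mean from 0 to 1, 3.31% were called, against 0.552% of those from 4 to 6. Protein-coding genes made up 49 of the 70 higher and 45 of the 48 lower genes, against 91.6% of all genes tested. The lowest values of the 7 libraries ranged from −6.28 to −2.82, and values of low genes depend on this floor. With genes of a mean of at least 2 alone in the fit, 29 genes were called higher and 37 lower.

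**Figure D1:**
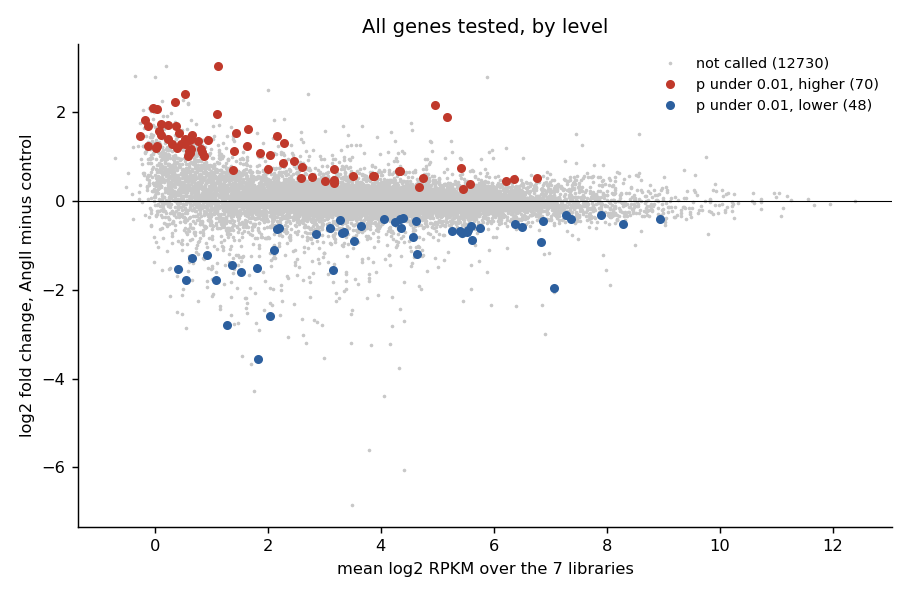
Mean log2 RPKM over the 7 libraries (x axis) against the log2 fold change, AngII minus control (y axis), for each of the 12848 genes tested. The 70 genes called higher (red) gather at low levels, and the 48 called lower (blue) reach to higher levels.

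Among the lower genes the amino acid response stood out by its count of members called. Of 34 genes of the list tested, 7 were called lower and 0 higher, against 0.374% of all genes called lower. At an unadjusted p under 0.05 there were 14, all lower, against 2.63% of all genes. In 14 the AngII libraries lay wholly below the control libraries, against 3.68% of all genes. The median log2 fold change of the list was −0.35 against 0.02 for all genes tested. The list mean, relative to the mean of the 7 libraries, was 0.29, 0.07 and 0.36 in S1, S2 and S3 and −0.36, −0.08, −0.18 and −0.10 in S5, S6, S7 and S8.

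Ddit3, the gene of the pro-apoptotic transcription factor CHOP, had log2 RPKM values of 5.67, 5.62 and 5.65 in the control libraries and 5.10, 4.93, 4.84 and 5.03 in the AngII libraries. The 2 groups lay 0.52 apart, and the difference was −0.67 (SE 0.145, called), a level 1.59-fold lower. Asns, asparagine synthetase, had values of 5.88, 5.94 and 5.96 in the control libraries and 5.46, 5.27, 4.98 and 5.17 in the AngII libraries, a difference of −0.71 (SE 0.164, called). Here too each AngII library was below each control library. Trib3, a pseudokinase that ATF4 and CHOP induce, had values of 4.15, 3.48 and 4.51 in the control libraries and 2.79, 2.32, 2.0 and 2.86 in the AngII libraries, a difference of −1.55 (SE 0.385, called). The smallest p that an exact permutation test of 3 against 4 libraries allows (35 assignments, 2-sided) is 0.0286, and all of these reached it.

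The serine and one-carbon branch of the response was low as well. Phgdh, the entry enzyme of serine synthesis, had values of 5.80, 5.88 and 5.84 in the control libraries and 5.51, 4.83, 4.82 and 5.36 in the AngII libraries, a difference of −0.71 (SE 0.198, called). Psat1, the next enzyme of this path, had values of 4.97, 4.78 and 4.90 in the control libraries and 4.45, 4.60, 4.36 and 4.32 in the AngII libraries, a difference of −0.45 (SE 0.135, called). Mthfd2, a mitochondrial folate enzyme, had values of 6.18, 5.99 and 6.17 in the control libraries and 4.76, 5.51, 5.41 and 5.23 in the AngII libraries, a difference of −0.89 (SE 0.24, called). S5 had the lowest Mthfd2 value but the highest AngII value for Phgdh, and neither gene's groups overlapped. Shmt2, which moves the serine carbon onto folate in mitochondria, was at −0.40 (SE 0.173, unadjusted p under 0.05) and Aldh18a1, of proline synthesis, at −0.33 (SE 0.152, unadjusted p under 0.05), both short of the call. Pycr1, the last enzyme of proline synthesis, had values of 2.84, 2.99 and 2.99 in the control libraries and 1.89, 1.85, 2.40 and 2.63 in the AngII libraries, a difference of −0.75 (SE 0.253, unadjusted p under 0.05). Slc7a3, an importer of cationic amino acids, was at −1.79 (SE 0.575, called), with values of −1.29, 0.62, 1.05 and 0.90 with AngII against 2.27, 1.62 and 2.44. Chac1, which breaks down glutathione, had values of 3.83, 3.69 and 4.15 in the control libraries and 2.76, 2.98, 3.19 and 2.85 in the AngII libraries, a difference of −0.94 (SE 0.328, unadjusted p under 0.05) that missed the call although the groups lay 0.50 apart. Phgdh was not called without S2, S6 or S7, Psat1 without S1, S3, S7 or S8, and Slc7a3 without S1, S3, S5 or S6, while their differences kept their sign (−0.83 to −0.60, −0.51 to −0.41 and −2.03 to −1.25).

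**Figure D2:**
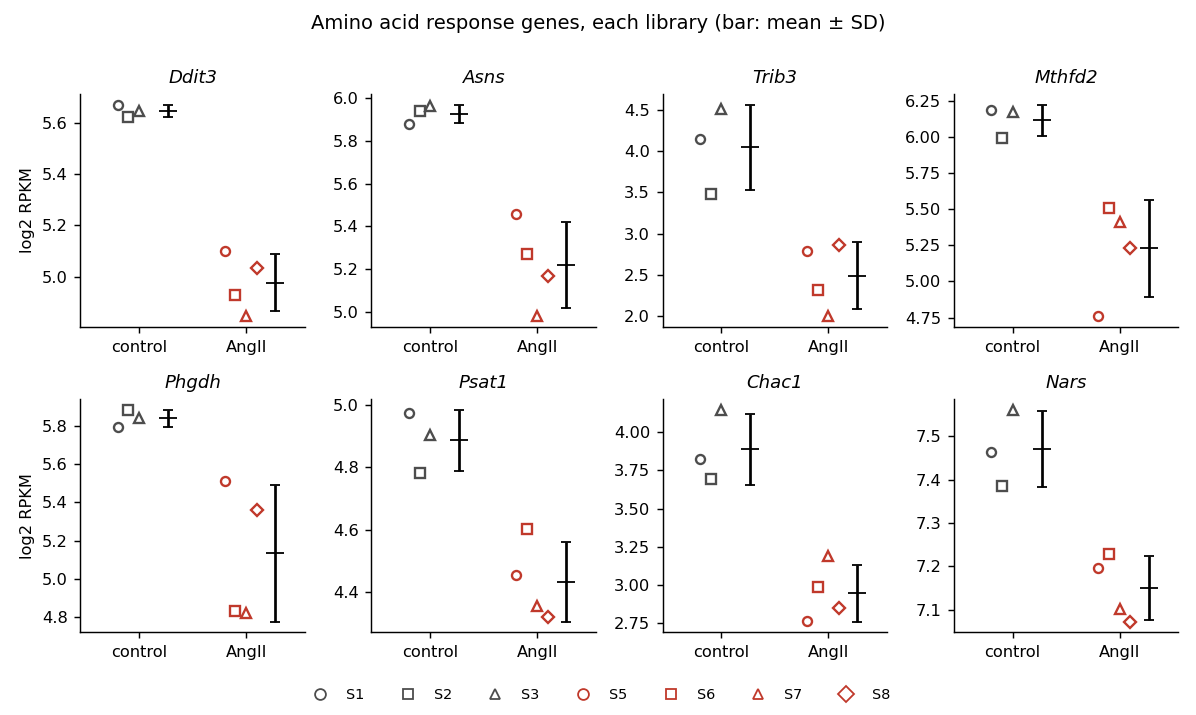
Log2 RPKM (y axis) of 8 genes of the amino acid response and tRNA charging in each control (grey) and AngII (red) library, with a symbol per library and a black bar for the mean ± SD (n = 3 and n = 4). In each panel the 4 AngII libraries lie below the 3 control libraries.

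Not all genes of the list were below control. Atf4 itself, the transcription factor of the response, had values of 6.49, 6.56 and 6.87 in the control libraries and 6.23, 7.85, 7.73 and 6.87 in the AngII libraries, a difference of 0.53 (SE 0.441, not called), and it was above each control library in S6 and S7 and below each in S5. Atf5, a related factor, had values of 6.35, 6.31 and 6.34 in the control libraries and 5.83, 5.96, 5.76 and 5.99 in the AngII libraries, a difference of −0.45 (SE 0.165, unadjusted p under 0.05). Ppp1r15a, a phosphatase subunit that reverses eIF2 phosphorylation, was at 0.36 (SE 0.169, not called), and Nupr1, a stress-induced chromatin protein, had AngII libraries from 4.51 to 4.77 above control libraries from 4.19 to 4.44, a difference of 0.27 (SE 0.175, not called). Slc7a11, the cystine importer, had values of 4.19, 2.37 and 4.62 in the control libraries and 4.47, 1.40, 0.78 and 1.79 in the AngII libraries and so stood with the controls S1 and S3 in S5, a difference of −1.61 (SE 0.906, not called). With S5 left out, 6 members were called lower and 1 higher and the median was −0.33, and with each library's length trend removed, 9 were called lower and the median was −0.35.

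Some promoters of this group carry a motif that ATF4 is known to bind with C/EBP partners. RefSeq promoter windows (GRCm38.p6, from 250 bases before to 50 after the start) were given for 29 of the 34 genes, and 8 of the 29 (27.6%) held TGATGNAA on either strand, against 2.65% of the genes tested and 4.51% of all genes with a window. Among the called genes it was 3 of 38 of the lower (7.89%) and 2 of 41 of the higher (4.88%). Among tRNA synthetase genes it was 5 of 12 (41.7%). Both lists were chosen from textbook knowledge, so their shares describe the lists and not the AngII difference. The 250 bases before the start are printed for Asns, Pycr1 and Chac1, members that lay below control in all 4 AngII libraries and hold the motif upstream, with the match in capitals. They lie at chr6:7693210-7693459 (minus strand), chr11:120643749-120643998 (minus strand) and chr2:119350992-119351241 (plus strand).
Asns: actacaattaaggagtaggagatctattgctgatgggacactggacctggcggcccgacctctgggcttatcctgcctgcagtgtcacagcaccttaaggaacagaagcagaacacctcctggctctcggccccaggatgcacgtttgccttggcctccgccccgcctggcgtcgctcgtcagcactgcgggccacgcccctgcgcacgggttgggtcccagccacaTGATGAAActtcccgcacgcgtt
Pycr1: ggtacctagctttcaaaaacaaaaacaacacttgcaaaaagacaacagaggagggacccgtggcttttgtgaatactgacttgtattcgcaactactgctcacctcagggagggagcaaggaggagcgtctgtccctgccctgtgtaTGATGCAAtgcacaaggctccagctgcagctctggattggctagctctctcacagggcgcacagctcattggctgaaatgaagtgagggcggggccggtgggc
Chac1: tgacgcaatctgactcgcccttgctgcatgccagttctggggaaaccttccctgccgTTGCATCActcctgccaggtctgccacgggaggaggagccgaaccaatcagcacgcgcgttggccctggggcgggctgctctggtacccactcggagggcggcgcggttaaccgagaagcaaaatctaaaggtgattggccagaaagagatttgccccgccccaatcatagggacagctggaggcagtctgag
The match began 23 bases before the start in Asns, 103 in Pycr1 and 193 in Chac1. In Trib3 it began at base 15 after the start. The remaining list members with a match, Slc7a11, Nupr1, Slc1a4 and Vldlr, also hold it upstream, and none of them was called by limma. Nupr1 lay above control in each AngII library, and Slc7a11 overlapped the controls. The printed windows are therefore a selection, and the motif was not confined to members that lay below control. A match is a description of these letters only, and the windows of Ddit3, Phgdh, Psat1 and Mthfd2 are not among those that hold it.

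Genes for tRNA charging held 2 more called members, and the chaperones 1. Of 20 aminoacyl-tRNA synthetases, which load amino acids onto tRNA, 18 had a difference below 0 and the median was −0.20. Of these, 2 were called lower, against 0.374% of all genes. Nars, for asparagine, had values of 7.46, 7.39 and 7.56 in the control libraries and 7.19, 7.23, 7.10 and 7.07 in the AngII libraries, a difference of −0.32 (SE 0.0972, called). Sars, for serine, had values of 7.16, 7.02 and 7.24 in the control libraries and 6.95, 6.59, 6.57 and 6.63 in the AngII libraries, a difference of −0.45 (SE 0.144, called), with S5 next to the controls. Nars was not called without S1, S3, S7 or S8 and Sars not without S1, S3, S6, S7 or S8, and without S5 there were 4 members called. Of 36 mitochondrial and cytosolic chaperones, 1 was called lower (0.374% of all genes) and the median was −0.13. At an unadjusted p under 0.05 there were 4, all lower, against 2.63% of all genes. Without S5, 10 chaperones were lower and 1 higher at an unadjusted p under 0.05, and without S1, 1 was lower and 0 were called by limma. Hspa9, the mitochondrial Hsp70, had values of 9.19, 9.13 and 9.18 in the control libraries and 8.64, 8.83, 8.80 and 8.83 in the AngII libraries, a difference of −0.39 (SE 0.105, called) that was not called without S1. Hspd1, the mitochondrial chaperonin, was at −0.39 (SE 0.148, unadjusted p under 0.05), Lonp1, a mitochondrial protease, at −0.43 (SE 0.162, unadjusted p under 0.05) and Stip1, a cochaperone of Hsp90, at −0.50 (SE 0.222, unadjusted p under 0.05). ER chaperones and targets of the IRE1 and ATF6 branches, the other arms of the unfolded protein response, had 0 of 28 members called by limma, 0 at an unadjusted p under 0.05 and a median of −0.05.

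Subunits of oxidative phosphorylation stood on the other side. Complex I, which oxidises NADH, had 35 of 36 subunits above 0 and 7 at an unadjusted p under 0.05, all higher, against 3.41% of all genes. In 10 subunits the AngII libraries all lay above the control libraries, against 5.06% of all genes. No complex I subunit was called by limma. Of 42 subunits of complexes II to V, 37 were above 0 and 2 were called higher (0.545% of all genes). At an unadjusted p under 0.05 there were 17, all higher (3.41% of all genes), and 19 did not overlap, all higher (5.06% of all genes). The medians were 0.25 for complex I and 0.32 for complexes II to V, against 0.02 for all genes.

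Uqcr11, a subunit of complex III, had values of 6.52, 6.54 and 6.37 in the control libraries and 6.98, 7.09, 7.06 and 6.83 in the AngII libraries, a difference of 0.52 (SE 0.165, called). Atp5k, a subunit of the ATP synthase, had values of 5.88, 6.07 and 5.93 in the control libraries and 6.48, 6.34, 6.44 and 6.42 in the AngII libraries, a difference of 0.46 (SE 0.154, called). Both showed 4 of 4 AngII libraries above the controls, but Uqcr11 was not called without any of S1, S2, S3, S5, S6 or S7, and Atp5k was not called without any 1 of the 7 libraries. Cox7b, of complex IV, had values of 7.0, 7.24 and 6.87 in the control libraries and 7.85, 7.59, 7.57 and 7.29 in the AngII libraries, a difference of 0.54 (SE 0.189, unadjusted p under 0.05), and Uqcr10, of complex III, was at 0.48 (SE 0.176, unadjusted p under 0.05). The largest differences of the list were those of Cox7a1 and Cox8b, the heart and muscle forms of 2 complex IV subunits. Cox8b had values of 4.74, 5.22 and 4.70 in the control libraries and 5.61, 6.16, 6.11 and 5.46 in the AngII libraries, a difference of 0.95 (SE 0.36, unadjusted p under 0.05), and Cox7a1 had values of 5.23, 5.39 and 5.09 in the control libraries and 5.94, 6.59, 6.69 and 5.52 in the AngII libraries, a difference of 0.95 (SE 0.416, unadjusted p under 0.05). In both S6 and S7 were the highest libraries. In complex I, Ndufc1 was at 0.38 (SE 0.131, unadjusted p under 0.05), Ndufa3 at 0.33 (SE 0.119, unadjusted p under 0.05) and Ndufb11 at 0.46 (SE 0.188, unadjusted p under 0.05), without overlap in any of these.

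**Figure D3:**
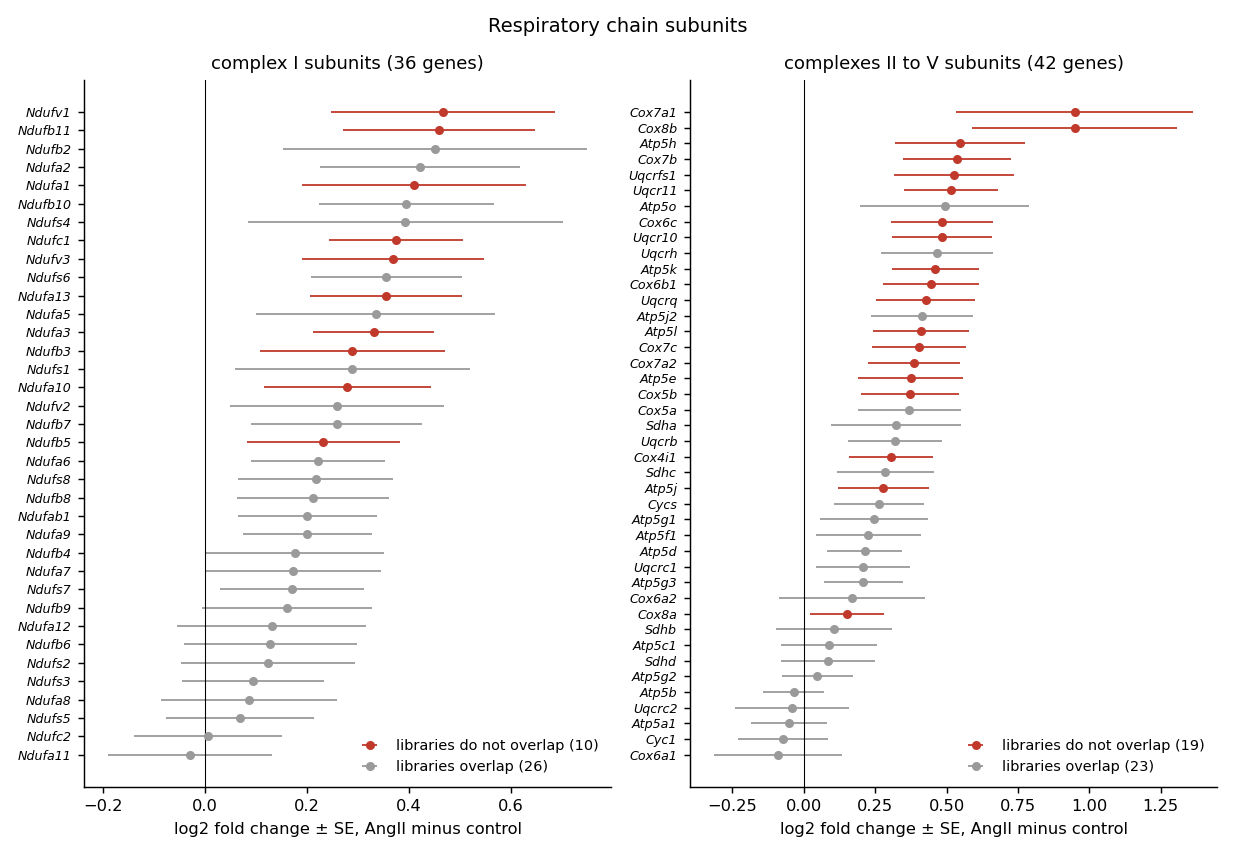
Log2 fold change, AngII minus control, with its standard error (x axis) for each tested subunit of complex I (left, 36 genes) and of complexes II to V (right, 42 genes). Red marks the 10 and 19 subunits whose AngII libraries all lay above the control libraries, and grey the others, which overlapped.

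These subunits are encoded by short genes (median transcript length 1643.5 bases for complex I and 1793.5 for complexes II to V, against 4377 for all genes tested), and S5 stood at a median of 0.13 for genes of 1500 to 3000 bases. The complex I mean, relative to the 7 libraries, was −0.14, −0.03 and −0.26 in the controls and 0.43, 0.02, 0.08 and −0.11 in S5 to S8, so S5 was highest and S8 lay within the control range. For complexes II to V it was −0.19, −0.05 and −0.30 against 0.26, 0.13, 0.20 and −0.05. Without S5 the medians were 0.13 and 0.27, with 4 and 10 subunits at an unadjusted p under 0.05 (all higher) and 0 called by limma. After removal of the length trend they were 0.22 and 0.29, with 4 and 12. The counts fell further without single control libraries. Without S1, 3 and 9 subunits had an unadjusted p under 0.05, with medians of 0.25 and 0.32. Without S3 there were 1 and 3, with medians of 0.18 and 0.27. All of these were higher, and 0 were called by limma in either fit. The 10 mitochondrially encoded genes tested, which do not share these nuclear promoters, had a median of 0.18, with mt-Nd6 at 0.51 (SE 0.203, unadjusted p under 0.05) and 0 called. Enzymes of the citric acid cycle (34 tested) had 0 called, 2 higher at an unadjusted p under 0.05 and a median of 0.15. Fatty acid oxidation (37 tested) had a median of 0.13 with 1 called, Decr2 on the lower side (0.374% of all genes). Decr2, a peroxisomal enzyme that processes unsaturated fatty acids, had values of 3.83, 3.69 and 3.72 in the control libraries and 2.69, 2.92, 3.03 and 3.54 in the AngII libraries, a difference of −0.70 (SE 0.191, called), with S8 nearest to the controls. It was not called without S1.

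Cytosolic ribosomal proteins are also encoded by short genes (median 1805.5 bases). Of 76 tested, 74 were below 0, 0 were called by limma, 1 had an unadjusted p under 0.05 and the median was −0.24. Rpl13a, that member, was at −0.45 (SE 0.198, unadjusted p under 0.05). The list mean was 0.15, 0.10 and 0.16 in the controls and −0.45, −0.40 and −0.13 in S6, S7 and S8, but 0.57 in S5. Complex I was highest in S5 as well (0.43). Without S5 the median was −0.49, with 33 of 76 at an unadjusted p under 0.05, all lower, and 2 called lower. Mitochondrial ribosomal proteins (77 tested) had a median of 0.02, with 0 called by limma and 1 higher at an unadjusted p under 0.05. Without S5 the median was −0.11, with 1 called in each direction, 2 higher and 9 lower at an unadjusted p under 0.05, and with the length trend removed it was −0.0074.

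The genes called higher were mostly of low level. Rln1, a relaxin, had values of −1.40, −1.70 and −0.58 in the control libraries and 0.41, 1.26, 1.30 and 0.53 in the AngII libraries, a difference of 2.10 (SE 0.419, called). Il17d, a cytokine of the IL-17 family, had values of −1.06, −0.10 and −1.59 in the control libraries and 1.39, 1.41, 1.42 and 1.05 in the AngII libraries, a difference of 2.23 (SE 0.472, called). Dclk2, a microtubule-associated kinase, had values of −0.26, −0.0037 and −0.31 in the control libraries and 1.67, 1.47, 1.06 and 0.84 in the AngII libraries, a difference of 1.45 (SE 0.332, called). In all of these the groups lay at least 0.84 apart and the calls held without any 1 library, but each control value was at or below a log2 RPKM of 0. Cables1, which links cyclin-dependent kinases to their regulators, was at 1.74 (SE 0.407, called), Galnt16, which starts mucin-type sugar chains, at 1.49 (SE 0.366, called) and the long non-coding RNA Lockd at 1.41 (SE 0.327, called). Trem2, a receptor of macrophages and related cells, had values of 0.72, 0.88 and 0.69 in the control libraries and 1.94, 1.60, 1.98 and 2.06 in the AngII libraries, a difference of 1.14 (SE 0.308, called), while macrophage markers had 0 of 10 called by limma, 0 at an unadjusted p under 0.05 (2 lower without S5, 2 higher without S2), and S5 highest (0.74 above the mean of the 7 libraries).

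Some higher genes were well expressed. Ppp3ca, the catalytic subunit of calcineurin, which dephosphorylates NFAT factors, had values of 5.41, 5.43 and 5.25 in the control libraries and 5.89, 5.64, 5.74 and 5.73 in the AngII libraries, a difference of 0.39 (SE 0.102, called), a level 1.31-fold higher. Each AngII library lay above each control library, and the call was lost without S3. Plpp1, a lipid phosphatase, had values of 3.94, 4.08 and 3.84 in the control libraries and 4.80, 4.63, 4.63 and 4.48 in the AngII libraries, a difference of 0.68 (SE 0.188, called) that was not called without S3. Dhrs13, a dehydrogenase, was at 0.76 (SE 0.196, called), with S5 highest at 3.39. Msra, which repairs oxidised methionine, had one of the widest gaps between groups among genes with a mean of at least 2, with 4.01 to 4.45 against 3.34 to 3.47, and a difference of 0.80 (SE 0.281, unadjusted p under 0.05).

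Components of the AngII pathway itself were mostly not called. Of 11 tested genes of the renin-angiotensin system, 0 were called by limma, 0 did not overlap and 1 had an unadjusted p under 0.05, with a median of −0.16. Without S8 that member, Agtrap, was called lower, and without S5 the median was −0.32, with 1 higher and 1 lower at an unadjusted p under 0.05. Agtr1a, the AT1 receptor, had values of 0.88, 1.24 and 1.24 in the control libraries and 1.27, 1.64, 1.57 and 1.12 in the AngII libraries, a difference of 0.28 (SE 0.245, not called), and the groups overlapped. Ace, the converting enzyme, had values of 3.28, 3.34 and 3.54 in the control libraries and 2.36, 4.28, 3.96 and 4.25 in the AngII libraries, with S5 below and S6, S7 and S8 above all controls. Agtrap, which binds the receptor and lowers its surface level, had values of 5.36, 5.22 and 5.54 in the control libraries and 4.58, 4.31, 4.50 and 5.38 in the AngII libraries, a difference of −0.68 (SE 0.268, unadjusted p under 0.05), and S8 lay within the control range. Downstream, 1 of 33 tested genes of Gq, calcium and calcineurin signalling was called (Ppp3ca), against 0.918% of all genes in either direction, and the median was 0.10. Nfatc2, a target of calcineurin, was at 0.53 (SE 0.195, unadjusted p under 0.05) and Nfatc4, another, at −1.04 (SE 0.412, unadjusted p under 0.05). Of 24 regulators of RAS and related GTPases (median −0.03), 2 were called, against 0.918% of all genes in either direction. Rasa4, which switches RAS off, was at 0.73 (SE 0.197, called) and Tiam1, an activator of Rac1, at −0.62 (SE 0.203, called). Rasa4 was not called without S1 and Tiam1 not without any of S1, S2, S3, S5, S6 or S7. Among feedback inhibitors of ERK, Spry4 had values of 5.10, 4.90 and 5.31 in the control libraries and 4.64, 4.34, 4.50 and 4.47 in the AngII libraries, a difference of −0.62 (SE 0.214, unadjusted p under 0.05), and Spred1 was at −0.45 (SE 0.176, unadjusted p under 0.05), both without overlap and short of the call. Immediate early genes (31 tested), which respond to such stimuli within hours, had 0 called by limma, 2 lower at an unadjusted p under 0.05 and a median of 0.06 at this harvest on day 8. That count turned on single libraries: without S5, 2 were called higher, with 7 higher and 2 lower at an unadjusted p under 0.05 and a median of 0.16, while without S2, 1 was called lower, with 1 higher and 5 lower and a median of −0.01. Regulators of G protein signalling (18 tested) had 0 called by limma and 0 at an unadjusted p under 0.05, against 1 higher and 2 lower at that threshold without S5.

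The hypertrophy and fetal gene programme had 0 of 28 genes called by limma and 1 at an unadjusted p under 0.05, with a median of 0.14. Without S5, 4 were higher at an unadjusted p under 0.05 (median 0.21), and without S8, 1 was higher and 2 were lower. Without S1 or without S3 there were 0 at that threshold, with medians of 0.15 and 0.06. In 3 genes the AngII libraries lay wholly above the controls (5.06% of all genes did) and in 1 below. Myl4, the atrial light chain, had values of 6.56, 6.82 and 6.37 in the control libraries and 7.57, 8.59, 8.65 and 7.60 in the AngII libraries, a difference of 1.51 (SE 0.618, unadjusted p under 0.05). Csrp3, a muscle LIM protein, had values of 8.19, 8.39 and 8.01 in the control libraries and 9.07, 8.46, 8.42 and 9.40 in the AngII libraries, a difference of 0.64 (SE 0.326, not called). Myh7, the beta myosin heavy chain, had values of 6.05, 6.18 and 6.11 in the control libraries and 6.31, 6.96, 6.91 and 6.23 in the AngII libraries, a difference of 0.49 (SE 0.448, not called), and S5 and S8 exceeded the highest control by little. Nppb, B-type natriuretic peptide, had values of 9.67, 9.78 and 9.73 in the control libraries and 9.73, 9.17, 9.11 and 10.49 in the AngII libraries, and Acta1, skeletal actin, 4.90, 5.24 and 4.60 in the control libraries and 4.75, 3.46, 3.20 and 7.08 in the AngII libraries. In both S8 was the highest and S6 and S7 the lowest of the 7 libraries, and the differences were −0.10 (SE 0.304, not called) and −0.29 (SE 0.689, not called). Nppa, A-type natriuretic peptide, held the rank with the value 11.98 in 6 of the 7 libraries and 11.73 in S7, so its level could not be resolved on this scale. Adult sarcomere genes (25 tested, median 0.17) and calcium handling and ion channels (36 tested, median 0.33) had 0 called by limma and 1 each at an unadjusted p under 0.05. Without S8, 1 sarcomere gene was called higher and 4 channel genes were higher at an unadjusted p under 0.05. Without S1 or without S3, both lists had 0 genes at that threshold. For the channels, S6 and S7 had list means of 0.57 and 0.62 against −0.45 in S5 and −0.09 in S8.

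**Figure D4:**
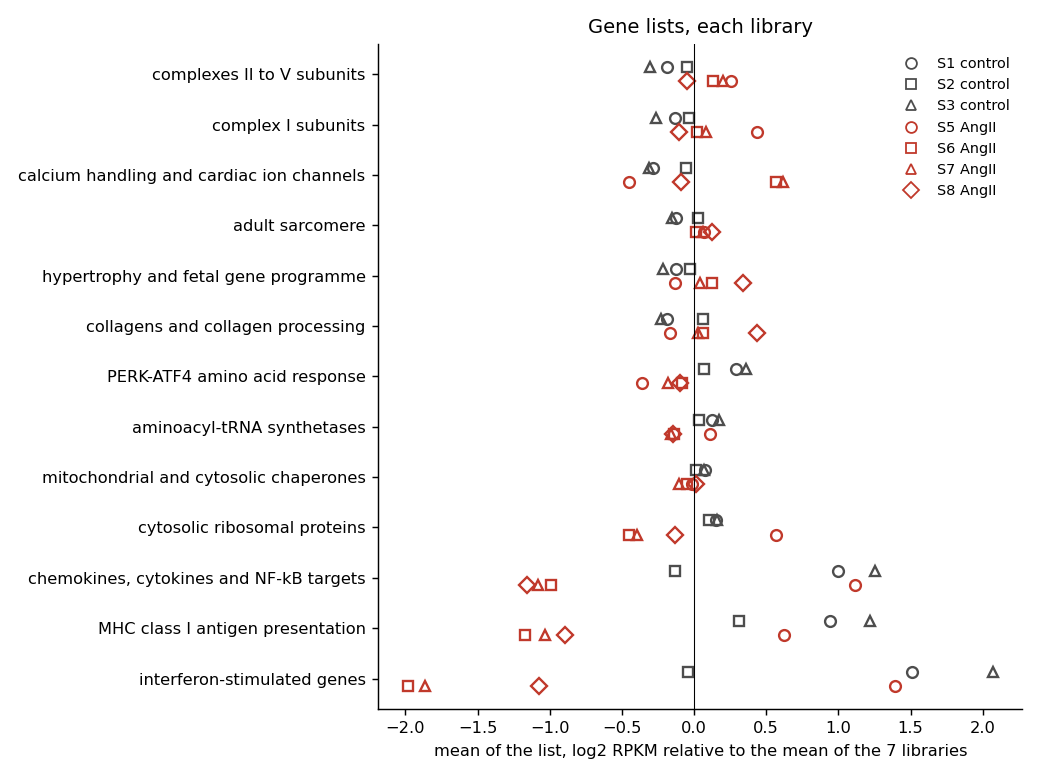
Mean of each of 13 gene lists in each library, as log2 RPKM relative to the mean of the 7 libraries (x axis), with control libraries in grey and AngII libraries in red. The AngII libraries lie below all controls for the amino acid response, while S5 lies with the controls S1 and S3 for interferon-stimulated genes (1.39, 1.51 and 2.07).

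Interferon-stimulated genes, which cells switch on after sensing viral nucleic acid or interferon, had the median farthest from 0 of the 47 lists with members tested. All 37 tested were below 0, with a median of −2.11. However, 1 was called lower (0.374% of all genes) and 11 had an unadjusted p under 0.05 (2.63% of all genes, lower). In 1 (Dtx3l) the groups did not overlap, against 3.68% of all genes on the lower side. Ifit1 shows the pattern, with 7.10, 4.57 and 8.04 in the control libraries and 6.90, −0.51, 0.03 and 2.32 in the AngII libraries, a difference of −4.39 (SE 2.01, unadjusted p under 0.05). S5 was close to the controls S1 and S3, the control S2 was in between, and S6, S7 and S8 were lowest, so the size of the difference depended on which libraries were counted. Without S5 the median was −2.89, with 10 called lower and 36 of 37 at an unadjusted p under 0.05, and without S2 it was −2.78, with 2 and 26. Without S8 or without S3, 0 were called and 3 and 1 had an unadjusted p under 0.05. Trim25, a ligase that acts on the RNA sensor RIG-I, was the called member, at −1.20 (SE 0.394, called), and was not called without S1, S3, S6, S7 or S8.

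MHC class I genes, which interferon also raises, followed the same libraries but with more separation. All 19 were below 0, with a median of −1.31. Of these, 3 were called, against 0.374% of all genes called lower, 10 had an unadjusted p under 0.05 (2.63% of all genes, lower) and 5 lay wholly below the controls (3.68% of all genes). H2-Q7, a class Ib heavy chain, had values of 3.05, 2.10 and 3.44 in the control libraries and 1.95, −0.39, −0.45 and −0.78 in the AngII libraries, a difference of −2.78 (SE 0.785, called). H2-Q6, its neighbour, had values of 3.97, 3.54 and 4.04 in the control libraries and 2.28, −0.58, −0.19 and −0.33 in the AngII libraries, a difference of −3.55 (SE 1.07, called). These genes share near-identical sequence, so reads could be split between them and their values are uncertain. B2m, the common light chain, had values of 9.22, 8.88 and 9.29 in the control libraries and 8.51, 6.61, 6.65 and 7.21 in the AngII libraries, a difference of −1.89 (SE 0.668, unadjusted p under 0.05), and S5 was the AngII library nearest to the controls. H2-K1, a classical heavy chain, had values of 8.32, 7.57 and 8.64 in the control libraries and 7.61, 5.80, 5.80 and 5.70 in the AngII libraries, a difference of −1.95 (SE 0.611, called), and S5 overlapped the controls. Without S5, 9 of the 19 were called lower and the median was −1.72. H2-Q7 was not called without S1, S3 or S8, H2-Q6 not without any of S1, S2, S3, S6, S7 or S8 and H2-K1 not without S1, S3, S6, S7 or S8. Chemokines, cytokines and NF-kB targets (31 tested) had a median of −0.81, with 1 called higher (Il17d, against 0.545% of all genes) and 4 lower at an unadjusted p under 0.05 (2.63% of all genes). Without S5 the median was −1.13, with 3 called lower and 17 lower at an unadjusted p under 0.05, and without S2 it was −1.27, with 1 and 11. One of the 4 was Ccl5, a T cell chemokine, with values of 4.26, 3.77 and 4.58 in the control libraries and 3.56, −1.50, −1.40 and −0.96 in the AngII libraries.

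The motif of the interferon-stimulated response element, on either strand, was in the RefSeq windows of 15 of 27 interferon genes (55.6%) and 5 of 16 MHC class I genes (31.2%), against 3.5% of the genes tested. These lists too came from textbook knowledge, so the shares describe the lists and not the AngII difference. The 250 bases before the start of B2m (chr2:122147437-122147686, plus strand, GRCm38.p6), whose level separated the groups, hold 1 match, in capitals, which began 139 bases before the start.
B2m: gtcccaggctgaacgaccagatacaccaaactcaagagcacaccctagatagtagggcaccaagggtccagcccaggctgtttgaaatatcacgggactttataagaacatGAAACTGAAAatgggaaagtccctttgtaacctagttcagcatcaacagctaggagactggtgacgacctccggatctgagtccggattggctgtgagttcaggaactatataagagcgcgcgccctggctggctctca

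Secreted and matrix genes were among the higher ones in some libraries. Igfbp2, a binding protein of IGF, had values of 3.95, 4.73 and 3.62 in the control libraries and 5.16, 6.20, 6.26 and 6.31 in the AngII libraries, a difference of 1.88 (SE 0.617, called). Fbln1, a matrix glycoprotein, had values of 1.36, 1.98 and 1.29 in the control libraries and 2.71, 2.86, 2.94 and 2.88 in the AngII libraries, a difference of 1.31 (SE 0.4, called), with the groups 0.73 apart. Mgp, an inhibitor of calcification, had values of 2.95, 4.83 and 3.39 in the control libraries and 4.39, 6.61, 6.06 and 6.51 in the AngII libraries, a difference of 2.17 (SE 0.669, called), and S5 lay below the control S2. Itga11, a collagen receptor subunit of mesenchymal cells, was at 1.37 (SE 0.418, called) and was the 1 integrin of 25 tested that was called, against 0.918% of all genes. Elastin (Eln) had 4.14, 4.67 and 4.04 in the control libraries and 4.39, 8.33, 8.21 and 7.42 in the AngII libraries, a difference of 2.80 (SE 1.05, unadjusted p under 0.05), so that S5 stood with the controls and the other AngII libraries well above. Without S5, 0 integrins were called by limma and 5 were higher and 1 lower at an unadjusted p under 0.05. Collagen genes (35 tested) had 0 called by limma, 3 higher at an unadjusted p under 0.05 (2 called and 5 without S5, 6 without S2) and a median of 0.12, with Col15a1 at 1.77 (SE 0.618, unadjusted p under 0.05). Fibroblast markers had 0 of 10 called by limma and 0 at an unadjusted p under 0.05 (without S5, 1 was called higher and 1 was lower), with list means of 0.07, 0.28 and 0.07 in the controls and −0.33, −0.26, −0.29 and 0.46 in S5 to S8, and smooth muscle markers had 0 of 9 called by limma (1 higher without S2) and 1 higher at an unadjusted p under 0.05, which was Tagln at 0.59 (SE 0.233, unadjusted p under 0.05). The part of these cells in the matrix values was not tested. Igfbp2, Fbln1 and Mgp were not called without S1, S3, S6, S7 or S8, and Itga11 not without S1, S3, S5 or S7. On the lower side, Mmp13, a collagenase, had values of 4.15, 2.01 and 4.39 in the control libraries and 2.58, 1.11, 1.13 and −1.11 in the AngII libraries, a difference of −2.59 (SE 0.861, called), with S5 above the control S2, and was not called without S1, S3, S6, S7 or S8.

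Some of the other lower genes belonged to no list, as did Cgnl1, Cyb5r1, Scube3 and Cyp1a1. Cgnl1, a protein of cell junctions, had values of 6.20, 5.82 and 6.32 in the control libraries and 5.52, 5.50, 5.50 and 5.48 in the AngII libraries, a difference of −0.61 (SE 0.153, called), with the AngII libraries close together. Tbx3, a transcription factor of the conduction system and the 1 called gene of 18 in that list (0.918% of all genes were called), had values of 2.76, 2.52 and 2.93 in the control libraries and 1.26, 1.73, 1.80 and 1.74 in the AngII libraries, a difference of −1.10 (SE 0.298, called), with the groups 0.73 apart. Cyb5r1, an oxidoreductase, had values of 6.75, 6.58 and 6.69 in the control libraries and 6.23, 6.13, 6.07 and 6.22 in the AngII libraries, a difference of −0.51 (SE 0.143, called). Scube3, a secreted signalling protein, was at −1.29 (SE 0.351, called), and Cyp1a1, a target of the aryl hydrocarbon receptor, at −1.59 (SE 0.432, called), where S5 at 2.11 lay within the control range. Cgnl1, Tbx3 and Scube3 were not called without S3, Cyp1a1 not without S1 and Cyb5r1 not without S1 or S3. In all, the 40 pathway lists held 1210 distinct genes tested, of which 29 were called (2.40%, against 0.918% of all genes), and 89 of the 118 called genes were in none. The lists were chosen with earlier results of these data known, so the higher share is a description and no test. Cell cycle genes (47 tested), p53 targets (32), antioxidant genes (36) and clock genes (19) had 0 called by limma and 0 at an unadjusted p under 0.05. Without S5, the numbers at that threshold were 6 lower and 1 higher for antioxidant genes, 4 lower and 1 higher for p53 targets, 2 higher for cell cycle genes and 0 for clock genes, with 0 called by limma in each. Without S8, 1 p53 target was called lower.

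The same addition of AngII was made to cells that also had ldCil, and that comparison shares no library with the one above. Both come from the same fit and share a variance estimate per gene, so their p-values are not independent. On the first principal component of the 15 libraries (49.0%), S9 to S12, with ldCil alone, scored 43.2, 40.3, −39.6 and −38.0. S13 to S16, with AngII and ldCil, scored 4.44, 5.12, −42.0 and −24.7. The part of this split in the differences with ldCil was not tested. With ldCil, 96 genes were called (0.747%), 652 had an unadjusted p under 0.05 (5.07%) and 0 passed an adjusted p of 0.05 (limma, smallest adjusted p = 0.974). Of the 118 genes called without ldCil, 83 had the same sign with it, 46 of the 70 higher and 37 of the 48 lower, against 51.9% of all genes. The median difference with ldCil was 0.11 for the 70 higher and −0.20 for the 48 lower, against 1.19 and −0.68 without it. The 118 were chosen on the first comparison, so their smaller differences in the second are a description and no test. At an unadjusted p under 0.05 with ldCil, 6 of the 118 had the same sign (Ddit3, Cgnl1, Psat1, Nars and Nlgn2 lower, Atp5k higher) and 2 the opposite sign (Zcchc7 and Ifrd1). Ddit3, at −0.41, and Psat1, at −0.38, were the 2 genes of all tested that were called in both with the same sign. Nars was at −0.24, Cgnl1 at −0.32 and Nlgn2, a synaptic adhesion protein, at −0.56. Asns was at −0.20, Trib3 at −0.43 and Phgdh at −0.03, each at an unadjusted p over 0.05. The median of the amino acid response list was −0.21 with ldCil, that of complex I 0.19, with 34 of 36 subunits of the same sign as without ldCil, and that of complexes II to V 0.20, with 36 of 42. The interferon list had a median of −1.37 with ldCil and the ribosomal proteins 0.04. Rln1, the gene with the smallest p without ldCil, was at 0.11, from a group mean of 0.74 in ldCil libraries to 0.85 with AngII and ldCil, against −1.23 in control libraries. Across the 12848 genes the 2 differences had a Pearson r of 0.37, given as a description, since genes share libraries and normalisation. Tested directly, the AngII difference changed with ldCil in 75 genes at an unadjusted p under 0.01 (0.584%) and in 0 at an adjusted p under 0.05 (limma, smallest adjusted p = 0.958).

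**Figure D5:**
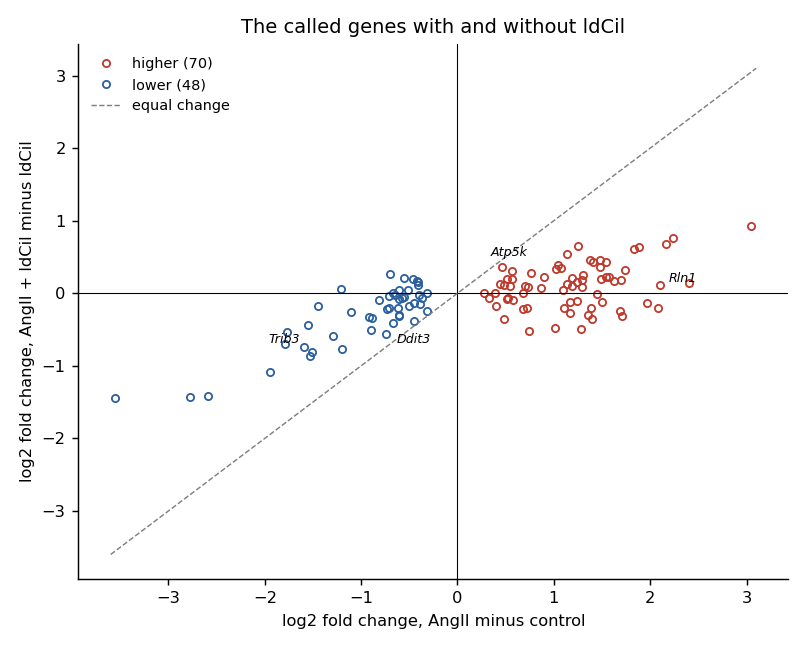
Log2 fold change of the 118 called genes for AngII minus control (x axis) and for AngII + ldCil minus ldCil (y axis), with red for the 70 higher and blue for the 48 lower genes and a dashed line where both are equal. Of the 118, 83 lie in the quadrants of equal sign, all of them nearer to 0 on the y axis than on the x axis.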

How the data were processed

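Poly(A)-captured RNA was sequenced on an Illumina NextSeq, 15 libraries in all. The submitters' processing notes name HISAT2 and HTSeq with GRCm38 (mm10), for alignment and counting, with tool versions not given in the sources used here. Deposited values are log2 RPKM, made by the authors with conditional quantile normalisation, with 14337 genes listed. Depth per library is unknown, so there are no counting intervals. GENCODE M21 (GRCm38) held 14329 of the gene identifiers, 12695 in the same version.

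The 12848 genes averaging 0 or more in log2 RPKM were tested. Limma 3.58.1 in R 4.3.3 fitted group means to the 15 libraries together, without covariates, and moderated the variances along a trend on expression level. P-values are 2-sided, with Benjamini-Hochberg adjustment across the 12848 genes. A gene was called at an unadjusted p under 0.01, the study's threshold, and counts at an adjusted p under 0.05 are given beside it. The study's own fitting tool for these cells is not stated. Standard errors (SE) come from this fit, which was tested on simulated data.

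The comparisons were AngII against control, AngII + ldCil against ldCil, and the difference of these differences. Single genes were also given exact permutation tests on the difference of means. The 40 pathway and 8 marker lists came from textbook knowledge and are described by counts and medians. Genes, lists and rules were chosen with earlier results of these data known. The genes named are the 12 with the smallest p in each direction, the 6 with the widest gap between groups in each direction (mean of 2 or more), up to 4 members of each list with the smallest p, the renin-angiotensin and hypertrophy lists, and the markers. Psat1, Slc7a3, Pycr1, Shmt2, Aldh18a1, Atf4, Atf5, Ppp1r15a, Nupr1, Slc7a11, Cox8b, Cox7a1, Ifit1, Trem2, Plpp1, Nlgn2, Zcchc7, Ifrd1, Slc1a4 and Vldlr were named after their values were seen. Promoter windows are from RefSeq (GRCm38.p6).

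As alternatives, the filter was dropped or raised to 2, a constant of 0.1 or 1 was added to RPKM, values were median-centred or quantile-normalised, the fit was limited to the 2 groups, the variance trend was dropped or made robust, libraries were weighted, and each library was left out. Removal of each library's trend with transcript length (lowess, span 0.3), with and without S5, was chosen after seeing the data.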

Additional observations from a re-analysis of the deposited data

Results flagged for a closer look

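In a group of 4 libraries, 1 library was set apart where its gap to the nearest of the others passed Dixon's 95% limit for 4 values as a share of the group's range, which chance alone gives in about 1 of 20 groups. Of 90 sets of 4 AngII values checked (the 43 called genes named by the rule and 47 gene lists), 18 met this, and S5 was the library set apart in 15 of the 18. For genes, the log2 RPKM of S5 and the range of S6, S7 and S8 are given next. S5 had for Dhrs13 3.39 against 2.73 to 2.84, for Hspa9 8.64 against 8.80 to 8.83, for Tbx3 1.26 against 1.73 to 1.80. S5 had for Cyp1a1 2.11 against 0.38 to 0.52, for Sars 6.95 against 6.57 to 6.63, for H2-Q7 1.95 against −0.78 to −0.39. S5 had for H2-Q6 2.28 against −0.58 to −0.19, for H2-K1 7.61 against 5.70 to 5.80, for Igfbp2 5.16 against 6.20 to 6.31. S8 had for Il17d 1.05 against 1.39 to 1.42 in S5, S6 and S7. For lists, values are means relative to the 7 libraries. In aminoacyl-tRNA synthetases, S5 was at 0.11 and the other AngII libraries at −0.16 to −0.14. In MHC class I antigen presentation, S5 was at 0.62 and the other AngII libraries at −1.17 to −0.89. In chemokines, cytokines and NF-kB targets, S5 was at 1.12 and the other AngII libraries at −1.16 to −0.99. In mitochondrial ribosomal proteins, S5 was at 0.41 and the other AngII libraries at −0.15 to −0.10. In cell cycle and DNA replication, S8 was at 0.60 and the other AngII libraries at −0.29 to −0.14. In insulin and IGF signalling, S5 was at −0.40 and the other AngII libraries at 0.14 to 0.22. In fibroblast markers, S8 was at 0.46 and the other AngII libraries at −0.33 to −0.26. In smooth muscle and pericyte markers, S5 was at −0.41 and the other AngII libraries at 0.19 to 0.31. Against the controls, S5 lay on the other side from S6, S7 and S8 or within the control range in H2-K1 and Cyp1a1, but farther from the controls than the others in Hspa9, Tbx3 and Dhrs13. No interaction with ldCil passed an adjusted p of 0.05 (limma, smallest adjusted p = 0.958), and 75 genes had an unadjusted p under 0.01.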

How the results depend on the processing

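The number of genes called for AngII against control (118) was 243 with no filter, 66 with a filter at a mean of 2, 247 with only the 2 groups in the fit and 5252 with library weights, where 6245 genes also passed an adjusted p of 0.05. It was 40 to 281 when each library was left out in turn (the lowest without S3, the highest without S5) and 274 without S5 and with the length trend removed. The share of called genes that were higher (59.3%) was 80.2% with no filter, 43.9% with the filter at 2, 84.0% without S1, 77.5% without S3 and 47.0% without S5. With only the 2 groups in the fit, 81 of the 118 were still called. Weights were 7.01 for S1 and 3.39 for S7 against 0.113 for S5, so the weighted fit rests mainly on few libraries. For AngII with ldCil against ldCil, the 96 called became 1954 with library weights (1623 at an adjusted p under 0.05), 150 without S5 and with the length trend removed, and 52 to 272 with each library left out (the lowest without S9, the highest without S12). For the interaction, the 75 became 2482 with library weights (2387 at an adjusted p under 0.05), 118 without S5 and with the length trend removed, and 34 to 173 with each library left out (the lowest without S1 or S2, the highest without S8). Genes whose libraries did not overlap numbered 1364 to 3682 with each library left out (the highest without S5, then 2515 without S2 and 2367 without S8), against 1123, and fewer libraries make an overlap less likely by construction. The 43 called genes named by the rule gave 1145 values under the 27 other settings, of which 984 were still called, 161 were not and 0 changed sign. Of 1269 list medians under other settings, 28 moved by over the spread between libraries. Medians near 0 of the integrin, mitochondrial ribosome, proteasome and endothelial lists changed sign under a scaling alternative, and those of the other lists did not. With 4 libraries against 3 and no read counts, small differences of low genes could not be resolved, and 0 genes at an adjusted p under 0.05 (776 at an unadjusted p under 0.05) does not show that the others are equal. No paired analysis was possible because the labels give no replicate numbers shared between groups.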
